A study of Mus musculus with 6 samples.

Results

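The genes described here are the 10 members of the insulin-like growth factor (IGF) axis that were followed in mouse lung fibroblasts: the ligand genes Igf1 and Igf2, the receptor genes Igf1r and Igf2r, and the binding protein genes Igfbp2 to Igfbp7. They were chosen by symbol among the 45706 genes of the table, each symbol matched 1 row, and all 10 had enough counts to be tested, among 14635 tested genes in all. Wild-type fibroblasts were grown out of digested lungs and compared as control cells (3 samples) and as cells that received recombinant mouse DKK1 protein (30 ng/ml) during 24 hours (3 samples), to find the transcripts that respond to DKK1, a secreted antagonist of Wnt signalling that acts on its co-receptors LRP5 and LRP6. The labels give no strain, age or number of animals and do not say whether the replicates came from separate mice, so p-values measure the spread between these samples only. Levels are in CPM, the counts of a gene per 1000000 counts of its library, and library totals ran from 22565917 to 34727102 counts.

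IGF1 and IGF2 are small secreted peptides that signal through IGF1R, a receptor tyrosine kinase, towards PI3K and AKT, and promote growth and survival of cells. IGF2R carries no kinase: it takes up IGF2 for degradation and also sorts lysosomal enzymes that bear mannose 6-phosphate. The secreted IGF binding proteins hold the ligands in the medium or matrix and hand them over when proteases cut them, and lung fibroblasts are known as a source of both ligand and binding proteins.

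The cultures had fibroblast transcripts in every library, with a summed level of the 9 fibroblast markers of 13366 to 15064 CPM in control and 12590 to 14255 CPM in DKK1 libraries. This sum was lower with DKK1 in each same-numbered pair, and the paired fit described next called Pdgfra and Dcn higher and 5 of the 9 (Col1a1, Col1a2, Pdgfrb, Thy1 and Vim) lower; their part in the members' levels was not tested. Replicate 3 of both groups stood apart, with 821 (control) and 831 CPM (DKK1) of 9 macrophage and other leukocyte markers against 403 to 477 CPM in the other 4 libraries, and with the highest sums of endothelial, epithelial and mesothelial markers. The sum of 5 smooth muscle and pericyte markers was 6132 to 6840 CPM in control and 5133 to 6060 CPM in DKK1 libraries, without overlap, and 1 of the 5 was called lower in the unpaired fit and 4 in the paired fit. Because same-numbered samples shared deviations from their groups, each gene is given in an unpaired fit and in a paired fit with the replicate number as a block. A gene is called changed where the p-value of edgeR's quasi-likelihood test, adjusted by Benjamini and Hochberg's method over all tested genes, was below 0.05. Paired fits that leave out 1 of the replicate numbers keep few samples, so their p-values rest mostly on the spread of other genes.

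Igfbp5 was 1.82-fold higher with DKK1, and it was the only member called in the unpaired fit, 1 of 10, where 0.895% of all tested genes were called (0.697% higher and 0.198% lower). In the paired fit 6 of the 10 members were called, where 9.42% of all tested genes were (4.96% higher and 4.46% lower): Igfbp5, Igfbp4 and Igfbp7 rose, and Igf1, Igfbp2 and Igfbp6 fell. Without the block, the median log2 fold change was 0.01 over the 10 members and -0.00 over all tested genes. Igf2, Igf1r, Igf2r and Igfbp3 were called in neither fit.

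The starts of Igfbp5 and Igfbp4 are shown because these genes rose by the largest factors among the members. They are upstream bases of RefSeq gene starts (GRCm38.p6), printed 5′ to 3′ on the gene's strand leaving out bases inside annotated exons. Capitals mark letters of the NF-kB consensus in the first sequence, where 2 matches overlap, and of the TATAAA box in the second.
Igfbp5 (chr1:72874885-72875115, minus strand): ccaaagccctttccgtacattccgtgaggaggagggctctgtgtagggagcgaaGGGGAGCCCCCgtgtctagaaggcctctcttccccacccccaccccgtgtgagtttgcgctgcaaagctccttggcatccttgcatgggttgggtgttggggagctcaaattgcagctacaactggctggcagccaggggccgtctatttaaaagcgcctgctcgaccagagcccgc
Igfbp4 (chr11:99040994-99041243, plus strand): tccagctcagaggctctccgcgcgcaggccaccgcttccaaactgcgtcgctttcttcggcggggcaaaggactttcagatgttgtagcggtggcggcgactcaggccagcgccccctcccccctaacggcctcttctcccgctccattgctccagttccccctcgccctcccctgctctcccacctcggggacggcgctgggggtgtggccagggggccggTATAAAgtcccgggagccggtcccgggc
All 10 members had at least 1 window in the RefSeq table. On both strands of the 300-base windows around RefSeq starts, the NF-kB consensus matched 1 of the members' 14 windows, that of Igfbp5, and 8.46% of all 32851 windows. TATAAA matched 2 of the 14 windows, those of Igfbp4 and Igfbp6, and 13.6% of all windows. The TCF/LEF core CTTTGA, through which Wnt signals act, matched 3 of the 14, namely Igf1, Igf1r and a window of Igf2, against 16.0% of all. The AP-1 letters TGANTCA matched 2 of the 14, in Igf1 and in a window of Igfbp2 (7.81% of all), and the C/EBP letters TTGCNNAA matched 0 of the 14 (10.8% of all). All upstream bases of the Igf1 window lie inside annotated exons, so the Igf1 matches are in exonic bases. These matches describe letters in a window and were not tested for binding.

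Igfbp5 (ENSMUSG00000026185, chromosome 1, 72857932 to 72874884, minus strand) encodes a binding protein that attaches to matrix and is known for its link to fibrosis. Its level was 65.1, 81.6 and 93.5 CPM in control replicates 1 to 3 and 135, 154 and 149 CPM in DKK1 replicates 1 to 3. The lowest DKK1 library lay above the highest control library, a separation seen in 16.5% of all tested genes. The mean went from 80.1 ± 14.2 to 146 ± 9.71 CPM (SD, n = 3 each). On the log2 scale the rise was 0.86 (SE 0.11, adjusted p by edgeR = 0.0129), with a 95% interval of the fold from 1.52 to 2.17. By size of change it ranked 27 among the 131 genes called. Within same-numbered pairs the DKK1 level was 2.08, 1.89 and 1.59 times the control level for numbers 1, 2 and 3. With the pairs as a block it came to 0.87 (SE 0.05, edgeR adjusted p = 1.93e-07). Without number 3 it was 0.97 and called (edgeR adjusted p = 5.31e-07 with the block and 0.0122 without it). Number 3 had the most leukocyte, endothelial and epithelial transcripts, and their part in the Igfbp5 level was not tested. Leaving out control replicate 2, DKK1 replicate 1 or DKK1 replicate 2 ended the unpaired call (edgeR adjusted p = 0.0651, 0.0502 and 0.0588), with log2 fold changes of 0.88, 0.91 and 0.82. Without the block, leaving out both samples of number 1 or of number 2 also ended it (edgeR adjusted p = 0.0592 and 0.19). Smooth muscle cells also make Igfbp5, and the part of the smooth muscle and pericyte markers, which summed to less in all 3 DKK1 libraries, was not tested. In bulk RNA, more or fewer cells of a type and more or less RNA per cell cannot be told apart.

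**Figure D1:**
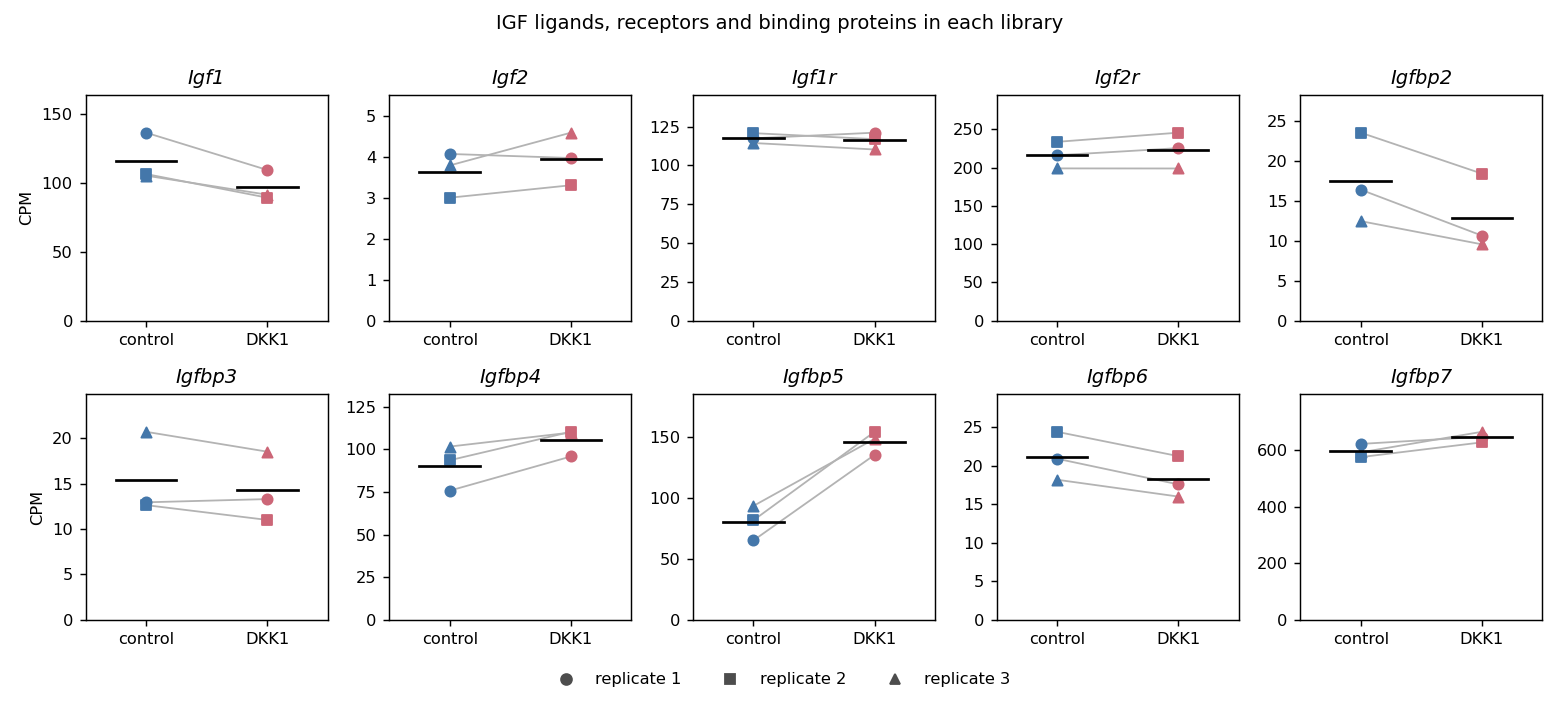
CPM of each of the 10 genes (vertical axes from 0, each with its own scale) in the 3 control and 3 DKK1 libraries. Symbols give the replicate number, grey lines join samples of the same number and black bars are means of 3. Igfbp5 rises from 65.1 to 93.5 CPM in control to 135 to 154 CPM with DKK1, while Igf1, Igfbp2 and Igfbp6 are lower in each of the 3 pairs.

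Igfbp4 and Igfbp7 rose by smaller factors, and only the paired fit called them. Igfbp4 (ENSMUSG00000017493, chromosome 11, 99041244 to 99054392, plus strand) encodes an inhibitory binding protein that the protease PAPP-A cuts. It stood at 75.8, 93.7 and 102 CPM in control replicates 1 to 3 and at 95.9, 110 and 110 CPM in the DKK1 replicates. The groups overlapped, while each DKK1 library was above its same-numbered control, as in the 41.8% of tested genes that moved one way in all 3 pairs. The paired log2 fold change came to 0.22 (SE 0.04, edgeR adjusted p = 0.00168) and the unpaired one 0.22 (SE 0.10, adjusted p = 0.515). Leaving out number 2 ended the paired call (edgeR adjusted p = 0.0505). Without control replicate 1 the unpaired log2 fold change was 0.11.

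Igfbp7 (ENSMUSG00000036256, chromosome 5, 77349240 to 77408041, minus strand) encodes a relative of the binding proteins that holds IGFs only weakly. Its values were 621, 574 and 591 CPM in control replicates 1 to 3 and 646, 627 and 664 CPM in DKK1 replicates 1 to 3, without overlap. The rise was 1.08-fold, with a log2 fold change of 0.11 in both fits (paired SE 0.02, edgeR adjusted p = 0.00541; unpaired SE 0.04, adjusted p = 0.31). Without number 2 or without number 3 it was no longer called in the paired fit (edgeR adjusted p = 0.107 and 0.0635). Without number 1 the paired edgeR adjusted p was 6.64e-08, smaller than with all samples included. Igfbp7 shares 85 exonic bases with Polr2b on the opposite strand, and the strand setting of the counting is not given in the sources used here.

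Igfbp2 and Igfbp6 fell in the paired fit. Igfbp2 (ENSMUSG00000039323, chromosome 1, 72824503 to 72852474, plus strand) lies 5457 bases from Igfbp5, the pair facing each other tail to tail, and moved the opposite way. Its levels were 16.4, 23.6 and 12.5 CPM in control replicates 1 to 3 and 10.7, 18.5 and 9.58 CPM in DKK1 replicates 1 to 3. Replicate 2 was the highest of either group, so the groups overlapped, but every DKK1 library was below its same-numbered control, at 0.649, 0.782 and 0.767 times its level. The paired log2 fold change came to -0.45 (SE 0.07, edgeR adjusted p = 0.00114) and the unpaired one -0.44 (SE 0.29, adjusted p = 0.675). The paired log2 fold change of Igfbp2 was -0.52 to -0.37 after leaving out any 1 of the 3 numbers. It was called each time, in fits of few samples (edgeR adjusted p = 0.000673 to 0.017). The unpaired value moved to -0.15 without control replicate 2 and to -0.80 without DKK1 replicate 2, called in neither case.

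Igfbp6 (ENSMUSG00000023046, chromosome 15, 102144362 to 102149511, plus strand) encodes the binding protein that prefers IGF2. It stood at 20.9, 24.4 and 18.2 CPM in control replicates 1 to 3 and at 17.6, 21.3 and 16.0 CPM in DKK1 replicates 1 to 3, lower in each pair with overlapping groups. The paired log2 fold change came to -0.22 (SE 0.05, edgeR adjusted p = 0.0235) and the unpaired one -0.21 (SE 0.13, adjusted p = 0.65). This call was lost whichever number was left out (edgeR adjusted p = 0.0604 to 0.167). The unpaired log2 fold change, never called, ranged from -0.35 without DKK1 replicate 2 to -0.09 without control replicate 2.

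Igfbp3 (ENSMUSG00000020427, chromosome 11, 7206086 to 7213923, minus strand), which encodes the main carrier of IGFs in blood, was called in neither fit. It measured 12.9, 12.6 and 20.7 CPM in control replicates 1 to 3, and the same-numbered DKK1 samples stood at 1.03, 0.871 and 0.894 times these levels (18.5 CPM in the highest), with overlapping groups. Replicate 3 was the highest of both groups, as it was for the leukocyte, endothelial and epithelial marker sums; the part of these cells in the Igfbp3 level was not tested. Its fold was 0.922 in the paired fit (95% interval 0.828 to 1.03, edgeR adjusted p = 0.396).

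**Figure D2:**
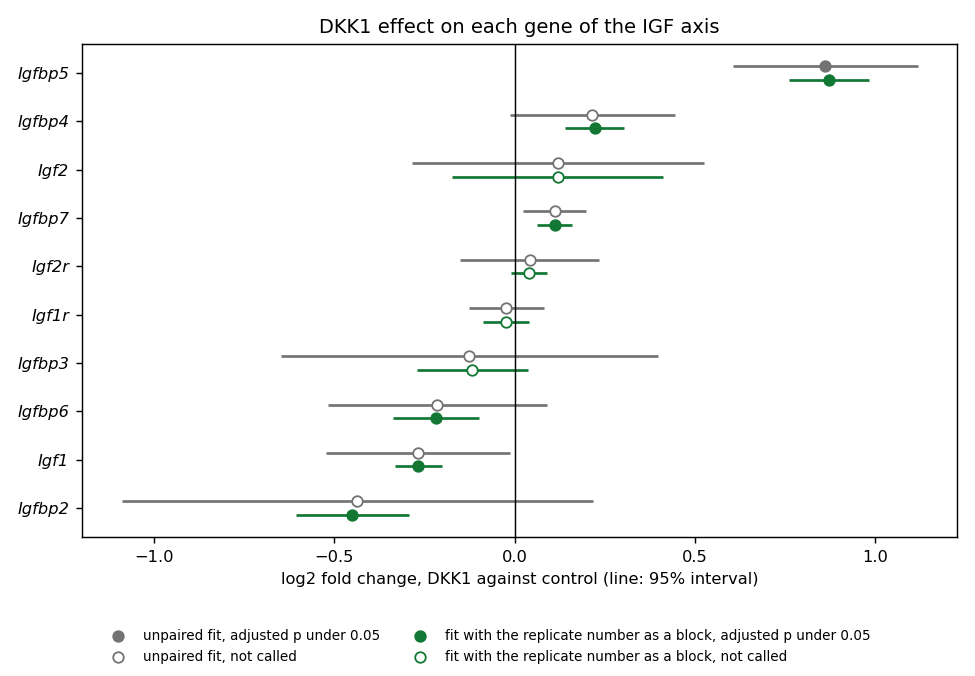
Log2 fold change of each gene, DKK1 against control (horizontal axis), in the unpaired (grey) and the paired fit (green). Lines are 95% intervals and filled points mark an adjusted p under 0.05. Igfbp5 is filled in both fits, at 0.86 and 0.87, and 5 further genes are filled only in the paired fit.

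Among the ligands, Igf1 fell in the paired fit and Igf2 was scarce. Igf1 (ENSMUSG00000020053, chromosome 10, 87858265 to 87937042, plus strand) measured 136, 106 and 105 CPM in control replicates 1 to 3 and 109, 89.1 and 91.2 CPM in DKK1 replicates 1 to 3. Replicate 1 was the highest of each group, and DKK1 replicate 1 lay within the control range. Within pairs the DKK1 level was 0.802, 0.839 and 0.868 times the control level. The paired log2 fold change came to -0.27 (SE 0.03, edgeR adjusted p = 6.34e-05) and the unpaired one -0.27 (SE 0.11, unadjusted p = 0.0424, adjusted p = 0.444). With the block, leaving out any 1 of the 3 numbers gave log2 fold changes of -0.29 to -0.24. Each was called, in fits of few samples (edgeR adjusted p = 1.21e-07 to 0.00542). Without control replicate 1 the unpaired log2 fold change was -0.14. Macrophages also make Igf1, and of the 7 tested leukocyte markers the paired fit called Csf1r (log2 fold change -0.25) and Mrc1 (-0.45) lower and Adgre1 (0.54) higher. The summed leukocyte markers ranged from 403 to 821 CPM in control and from 430 to 831 CPM in DKK1 libraries, and Cd3e was at 0; their part in the Igf1 level was not tested.

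Igf2 (ENSMUSG00000048583, chromosome 7, 142650766 to 142666816, minus strand), a fetal growth factor gene expressed from the paternal allele, had 85 to 115 counts in a library. It stood at 4.08, 3.01 and 3.80 CPM in control replicates 1 to 3 and at 3.98, 3.31 and 4.60 CPM with DKK1, with overlapping groups. Its fold was 1.09 (paired 95% interval 0.887 to 1.33, edgeR adjusted p = 0.687). Igf2 shares 98 exonic bases with Igf2os on the opposite strand (12 counts over the 6 libraries) and 3596 with Gm49394 on its own strand, so part of its counts may belong to overlapping genes.

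The receptor genes had the smallest log2 fold changes of the 10. Igf1r (ENSMUSG00000005533, chromosome 7, 67952827 to 68233668, plus strand) had 117, 121 and 114 CPM in control replicates 1 to 3 and 121, 117 and 110 CPM in DKK1 replicates 1 to 3. Its paired fold was 0.983 (95% interval 0.941 to 1.03, edgeR adjusted p = 0.712; unpaired adjusted p = 0.923). Correcting for GC content and gene length turned its log2 fold change from -0.02 to 0.03, called in neither case. Igf2r (ENSMUSG00000023830, chromosome 17, 12682406 to 12769664, minus strand) had 216, 234 and 199 CPM in control replicates 1 to 3 and 225, 246 and 199 CPM in DKK1 replicates 1 to 3. Its paired fold was 1.03 (95% interval 0.993 to 1.07, edgeR adjusted p = 0.359; unpaired adjusted p = 0.924). Airn, the noncoding gene that overlaps Igf2r on the opposite strand, had 165 counts over the 6 libraries and shares 0 exonic bases with it.

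Per length of transcript, Igfbp7 was the most abundant member when CPM was divided by the mean length of a gene's transcripts. It stood at 514 ± 20.4 CPM per kilobase in control (SD, n = 3, as for the following levels), ahead of Igfbp4 (76.4 ± 11.2), Igf2r (65.3 ± 5.24) and Igf1 (59.0 ± 8.98). The control libraries of Igfbp4 and Igf2r overlapped, as did those of Igf2r and Igf1. Igfbp6 (19.04 ± 2.80), Igfbp2 (16.4 ± 5.27) and Igfbp5 (15.6 ± 2.76) followed and overlapped their neighbours in this order. Igf1r (10.3 ± 0.278), Igfbp3 (7.47 ± 2.22) and Igf2 (1.81 ± 0.277) were lowest, in that order without overlap. With DKK1, Igfbp5 reached 28.4 ± 1.89 CPM per kilobase and moved from rank 7 to rank 5, above Igfbp6 and Igfbp2 in every library. The middle of the order depended on the length used: with the longest transcript of each gene Igf1 stood at 16.4 ± 2.50 in control, below Igfbp6, while Igfbp7 remained first at 496 ± 19.7. With the shortest transcript, which for Igf2r has 245 bases, Igf2r came first at 883 ± 70.8 and Igfbp7 next at 534 ± 21.1.

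**Figure D3:**
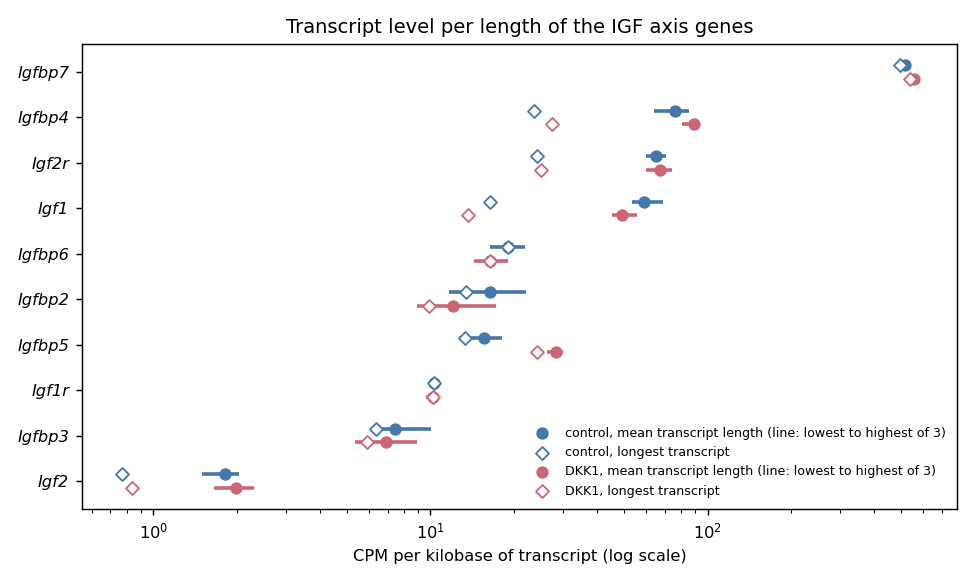
Level of each gene per kilobase of transcript (log axis), control in blue and DKK1 in red. Filled points use the mean transcript length, with lines from the lowest to the highest of 3 libraries, and open diamonds use the longest transcript. Igfbp7 lies highest at 514 and 558 CPM per kilobase, and Igfbp5 moves from 15.6 to 28.4.

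The genes whose level over the 6 libraries was most like that of Igfbp5, among 13019 other tested genes averaging 1 CPM or more, were Dgat2, Alad and Pgk1, with Pearson correlations of log2(CPM + 0.5) of 0.991, 0.990 and 0.988. These are descriptions over 6 libraries that share the group difference. Their own unpaired log2 fold changes were 0.46, 0.12 and 0.11, and none was called (edgeR adjusted p = 0.0918, 0.462 and 0.15).

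Of 47 other genes of the IGF pathway, 42 were tested and 1 was called without the block, against 0.895% of all tested genes. That gene was Stc1 (ENSMUSG00000014813), which encodes stanniocalcin 1, a secreted inhibitor of the proteases PAPP-A that cut binding proteins. Stc1 stood at 7.98, 7.78 and 7.77 CPM in control replicates 1 to 3 and at 12.1, 12.4 and 12.6 CPM in DKK1 replicates 1 to 3, with a narrow spread and no overlap. It rose 1.57-fold, or by 0.65 on the log2 scale in both fits (unpaired SE 0.07, edgeR adjusted p = 0.00742; paired SE 0.08, adjusted p = 0.000124). Leaving out control replicate 2 took the unpaired edgeR adjusted p to 0.0517, and leaving out both samples of number 1 or of number 2 took it to 0.142 and 0.163. The protease genes that Stc1 and Stc2 act on, and Stc2 itself, were called in neither fit: Pappa stood at 76.8 ± 4.92 and 73.8 ± 4.99 CPM, Pappa2 at 3.18 ± 0.432 and 3.00 ± 0.612 CPM, and Stc2 at 5.94 ± 0.889 and 5.83 ± 0.332 CPM (control and DKK1, SD, n = 3 each).

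In the paired fit 5 of the 42 were called, 2 higher and 3 lower, against 9.42% of all tested genes. By list these were 2 of 9 genes that set the availability of ligand, 0 of 9 for the Igf2 transcript and mannose 6-phosphate handling, and 3 of 24 for receptor signalling. Besides Stc1, the first list held Htra1, a secreted serine protease that cuts binding proteins, at 36.1, 33.1 and 36.5 CPM in control replicates 1 to 3 and 29.9, 30.6 and 30.5 CPM with DKK1. Htra1 fell by 0.21 on the log2 scale (SE 0.05, edgeR adjusted p = 0.0101 with the block and 0.114 without). It was no longer called in the paired fit without number 3. In the list for the Igf2 transcript and mannose 6-phosphate handling, 3 of 9 genes had an unadjusted p under 0.05 with edgeR's block and 0 of 9 without it, where 3036 and 1544 of all 14635 tested genes did.

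Among receptor signalling genes the adaptor gene Grb10, an inhibitor of the IGF1 and insulin receptors, was abundant and fell in the paired fit. It measured 799, 855 and 727 CPM in control replicates 1 to 3 and 667, 767 and 657 CPM in DKK1 replicates 1 to 3, lower in every pair while the groups overlapped. Its paired log2 fold change came to -0.19 (SE 0.02, edgeR adjusted p = 8.57e-05; unpaired adjusted p = 0.403). The related adaptor gene Grb14 rose in the paired fit, from 11.7, 11.5 and 10.2 CPM to 13.05, 17.0 and 14.1 CPM, without overlap (log2 fold change 0.40, SE 0.09, edgeR adjusted p = 0.00936; unpaired adjusted p = 0.219). Grb14 was not called with the block when number 2 or number 3 was left out. The other 21 signalling genes tested were called in neither fit, among them Insr, Irs1, Irs2, Pik3r1, Akt1 and Akt2. Per kilobase of mean transcript length, the 3 lists were led by Lrp1 (849), M6pr (72.7) and Akt1 (492 CPM per kilobase in control). Each of these 3 was called in neither fit. Other lengths were not tried for these lists. In CPM without division by length, Grb10 was above Akt1, at control means of 794 and 475.

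Of the binding protein genes outside the 10, Igfbp1, which sits 3539 bases from Igfbp3, had 0 counts in every library, which allows up to 0.0864 to 0.133 CPM at 3 counts. Igfals, Insrr and Irs4 stayed under 3 counts in each library and Igfbpl1 had 2 to 9, and these 5 genes were not tested.

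**Figure D4:**
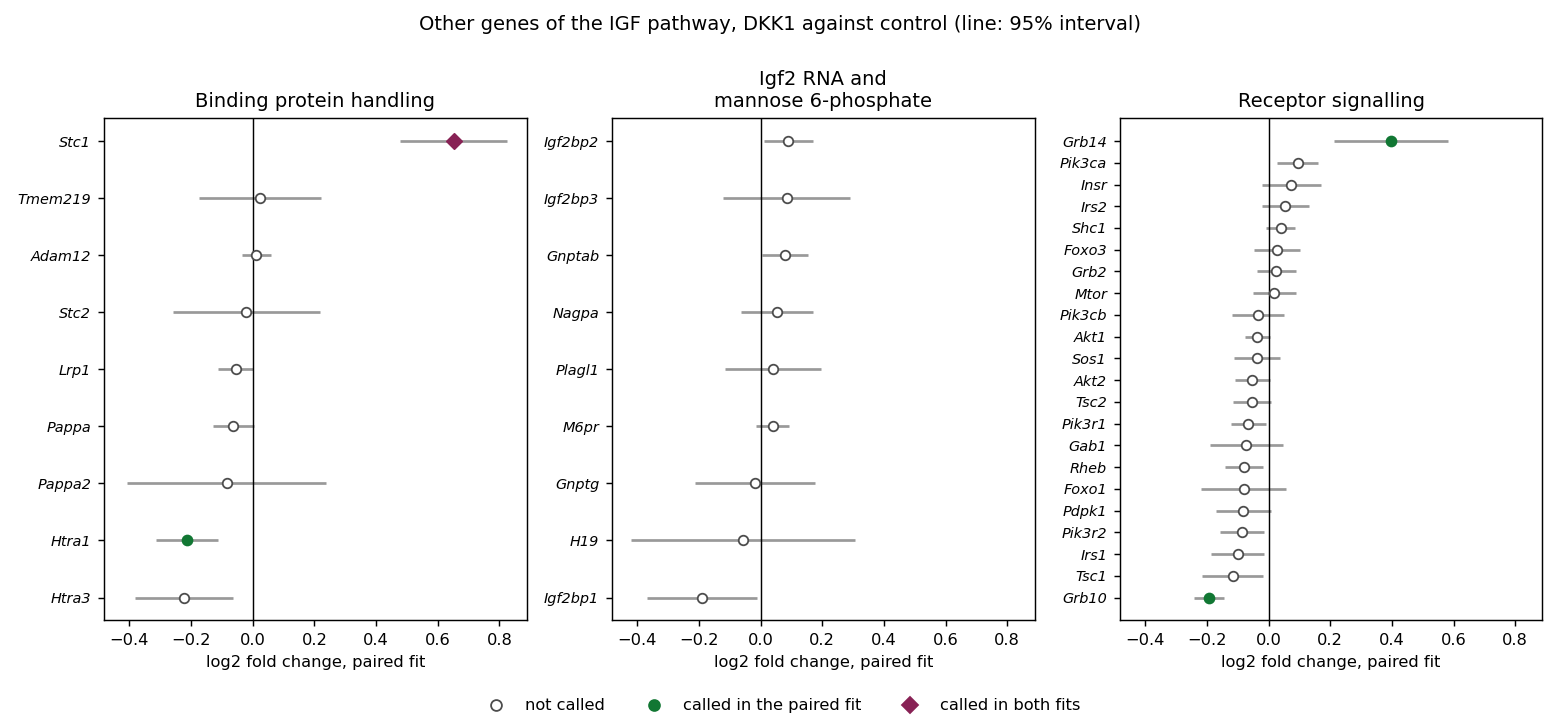
Log2 fold change with 95% interval (horizontal axis) of tested genes of the IGF pathway lists in the fit with the replicate block, in 3 panels by list. Open points were not called, green points were called in the paired fit and the purple diamond in both fits. Stc1 stands at 0.65 and Grb14 at 0.40, and the called genes on the left are Htra1 and Grb10.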

How the data were processed

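RNA of 3 control and 3 DKK1 samples was measured by sequencing. The deposited values are RSEM expected counts per gene, unscaled, with 9.62% to 10.6% of values per library not whole; all counts of the 10 members were whole. Per the submitters' processing notes, STAR, RSEM, edgeR 4.2.1 and the builds GRCm38 and mm10 were named; annotation release, strandedness and filters are not given in the sources used here. RSEM divides reads that match several genes among them by likelihood, which affects similar genes most.

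Symbols came from a supplied table (98.8% of identifiers matched). Positions and transcript lengths came from GENCODE M21 (GRCm38), which holds 98.7% of the table's transcript identifiers, and promoters from RefSeq. Expected counts were rounded to whole numbers, and edgeR 4.0.16 (R 4.3.3) was used to test them: filterByExpr (minimum count 10), TMM scaling, glmQLFit and glmQLFTest (two-sided), with Benjamini-Hochberg adjustment. Standard errors are approximate, from the size of the log2 fold change over the root of its F statistic. The procedure was tested on simulated data. The labels number replicates 1 to 3 in both groups without saying what a number stands for. Deviations of same-numbered samples correlated across genes at 0.23 to 0.41 and crossed ones at -0.28 to 0.08, so the paired fit is given beside the unpaired one. Deviations were taken from each group's mean, so the crossed values are tied to the same-numbered ones and add no separate support.

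Members, gene lists, the naming rule and the alternatives were chosen with earlier results of these data known. All 10 members are named, and of the pathway lists those called in either fit, the highest per kilobase and, beyond that rule, some chosen after their values were seen. Without molecular identifiers PCR copies cannot be separated from molecules, so floors cover counting error only. Single values of some genes of the pathway lists, which the list counts include, are not reported here.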

Additional observations from a re-analysis of the deposited data

How the results depend on the processing

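The 131 genes called became 329 without a low-count filter, 289 with the DESeq2 Wald test (DESeq2 1.42.0), 1379 with the replicate block and 1303 when this block was joined to a correction for GC content and length. Leaving out 1 sample gave 36 to 139 calls. With the block they were 1312, 612 and 1059 without number 1, 2 or 3. With both samples of number 1, 2 or 3 left out and no block, an alternative chosen after seeing the data, they were 6, 5 and 149. Of the members, Igfbp5 alone was called in each of the other unblocked fits of all 6 samples (DESeq2 size factors, library totals, both count filters, the GC and length correction, DESeq2, limma-voom and unrounded counts). With 1 sample left out, 0 to 1 members were called, and with the block 6 (also 6 with the GC and length correction). With the block and without number 1, 2 or 3 the members called were 5, 3 and 4, and without the block 0, 0 and 1. The pathway lists had 1 call, 5 with the replicate block, 6 with block and correction (Rheb was added) and 0 to 1 with 1 sample left out. With the block and without number 1, 2 or 3 they had 7, 3 and 2, and without the block 0, 0 and 1.

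Signs changed for 4 members, none of them called in any fit, and the cause was not tested. With 1 sample left out, the log2 fold change ranged from -0.0019 (without control replicate 2) to 0.23 for Igf2, from -0.0552 to 0.0148 (without DKK1 replicate 3) for Igf1r, from -0.0368 to 0.12 for Igf2r and from -0.34 to 0.13 for Igfbp3. For Igf2r and Igfbp3 the sign turned without control replicate 3 (-0.0212 and 0.13) and without DKK1 replicate 2 (-0.0368 and 0.0342). For Igf1r the GC and length correction gave 0.0327, and 0.0323 with the block. Log2 fold changes of Igfbp5 lay between 0.74 and 0.98 in all 22 alternatives. With 1 sample left out and no block, log2 fold changes ranged from -0.37 to -0.14 for Igf1, from -0.80 to -0.15 for Igfbp2, from 0.11 to 0.30 for Igfbp4, from -0.35 to -0.09 for Igfbp6 and from 0.09 to 0.14 for Igfbp7, none of these called. Igf2 had the fewest counts of the members, 85 to 115 in a library, and what that depth limits was not tested.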
